A study of Mus musculus with 12 samples.

Results

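The core pluripotency transcription factors are 8 genes of the mouse embryo, Nanog, Pou5f1, Sox2, Tfcp2l1, Esrrb, Zfp42, Sall4 and Tbx3, chosen by name. Their symbols were carried by 17 of the 45101 probe sets, and each gene was read from its probe set with the highest mean. They are 8 of 18194 named genes, and all 8 were among the 9930 genes bright enough to be tested. The study measured messenger RNA in whole preimplantation embryos, all from ICR mice, with 12 arrays (Affymetrix Mouse Genome 430 2.0), 2 in each of 6 groups, and asked how the ERK pathway inhibitor U0126 alters gene expression in early development. U0126 blocks the kinases that activate ERK. The treated group was collected at day 2.5, arrested at 4 cells in 20 µM U0126. Embryos freed from that arrest were collected at day 3.5, given as 8 cells, and at day 4.5, given as morula to blastocyst. Untreated controls were collected at day 1.5 with 2 cells, at day 2.5 with 4 to 8 cells and at day 3.5 as morula to blastocyst. The labels do not say how many were pooled for an array or how long the inhibitor was present.

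Pou5f1 (Oct4), a POU factor, and Sox2, an HMG box factor, bind DNA side by side at composite sites and, with the homeobox factor Nanog, activate one another's genes and those of the wider pluripotency network. In the mouse blastocyst these factors mark the inner cell mass and then the epiblast, while the outer cells become trophectoderm. Tfcp2l1, Esrrb and Tbx3 sustain the naive state of mouse embryonic stem cells downstream of LIF and of inhibition of MEK and GSK3. Zfp42 (Rex1) is a widely used marker of that state, and Sall4 is a zinc finger partner of Pou5f1 and Nanog.

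Promoter windows, 250 bases before to 50 bases after a start site, were taken from RefSeq on build GRCm38.p6 and were available for 6 of the 8 factors. They are shown because the octamer is the DNA word that Pou5f1 itself reads. The octamer core TTTGCAT, searched on both strands, lay in the windows of 3 of the 6, Nanog, Sox2 and Zfp42, against 5.24% of all 27025 genes with a window. A longer word, the octamer core followed after 1 base of any kind by the Sox word ACAATG, also searched on both strands and containing the shorter word, was found for Nanog alone, 1 of the 27025 genes. The words were chosen with the sequences in view. In the sequences the capitals mark the octamer core. For Nanog (chr6:122707239-122707538, plus strand) it starts 75 bases before the start site, and for Zfp42 (chr8:43306960-43307259, minus strand) 185 bases before it, both on the strand of the gene. Nanog has a second start site (window chr6:122707315-122707614), and the same core starts 151 bases before that site. For Sox2 (chr3:34649745-34650044, plus strand) it starts 99 bases before the start site on the opposite strand, so it reads ATGCAAA here. The window of Tfcp2l1 (chr1:118627695-118627994, plus strand), the member that differed most between U0126-treated and control embryos, held no match.
Nanog: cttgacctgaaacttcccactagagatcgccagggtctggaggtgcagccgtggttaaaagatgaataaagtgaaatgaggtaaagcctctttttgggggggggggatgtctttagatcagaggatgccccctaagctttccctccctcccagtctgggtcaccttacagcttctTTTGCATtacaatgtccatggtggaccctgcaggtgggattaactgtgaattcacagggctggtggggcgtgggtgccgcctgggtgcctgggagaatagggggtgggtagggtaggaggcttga
Zfp42: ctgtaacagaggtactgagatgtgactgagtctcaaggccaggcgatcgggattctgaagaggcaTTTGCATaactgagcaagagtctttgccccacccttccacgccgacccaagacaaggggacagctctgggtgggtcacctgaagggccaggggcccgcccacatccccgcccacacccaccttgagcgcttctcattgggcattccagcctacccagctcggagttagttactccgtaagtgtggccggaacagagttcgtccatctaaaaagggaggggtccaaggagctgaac
Sox2: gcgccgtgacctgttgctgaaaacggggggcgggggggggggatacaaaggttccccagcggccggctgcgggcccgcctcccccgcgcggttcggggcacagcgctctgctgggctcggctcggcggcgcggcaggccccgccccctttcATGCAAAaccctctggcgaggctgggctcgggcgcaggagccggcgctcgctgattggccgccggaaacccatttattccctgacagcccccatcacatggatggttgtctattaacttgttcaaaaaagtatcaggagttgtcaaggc
Tfcp2l1: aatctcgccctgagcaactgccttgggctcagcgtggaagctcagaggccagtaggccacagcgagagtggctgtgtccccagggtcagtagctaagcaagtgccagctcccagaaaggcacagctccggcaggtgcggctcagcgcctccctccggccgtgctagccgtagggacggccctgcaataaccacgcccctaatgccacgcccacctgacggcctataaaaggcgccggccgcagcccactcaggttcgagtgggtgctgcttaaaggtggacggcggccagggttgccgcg

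The 2 arrays of a group correlated at r = 0.955 to 0.980 over the tested genes, lowest for U0126 day 2.5, while arrays of different groups went down to r = 0.516. All 5 markers of the preimplantation embryo on the array (Dppa3, Dppa5a, Nlrp5, Zfp352, Zp3) were detected. None of 7 cumulus or granulosa cell markers and none of 4 sperm markers reached a log2 level of 5 on any array. Of 4 oviduct markers, Krt7, also a keratin of trophectoderm, and Ovgp1 reached it. Of 4 blood and immune markers, Cd68 reached it, and the list's summed intensity was 175 and 110 in U0126 day 2.5 embryos, against 44.8 and 39.8 in control day 2.5 embryos. Whether Cd68 bears on the differences between these groups was not tested. The 2 arrays per group limit the precision, and the labels do not say that they came from separate cultures or animals, although the series text speaks of 2 independent experiments. Each p-value therefore measures only the spread among these samples, and that spread may be technical.

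Levels are log2(intensity + 1), on which a difference of 1 is a doubling, and a level of 5 was taken as the lower limit of a reliable signal. Levels of different genes come from different probes and were not set against each other. Pou5f1, the POU factor that is also loaded into the egg, was well above that limit on every array. Its level was 9.56 and 9.19 in U0126 day 2.5 embryos, 11.77 and 10.64 in released day 3.5 embryos and 10.57 and 9.61 in released day 4.5 embryos. Controls stood at 9.34 and 9.05 at day 1.5, 11.42 and 10.53 at day 2.5 and 11.29 and 10.89 at day 3.5. The U0126-treated embryos thus overlapped the 2-cell controls and lay below every control array of day 2.5 or 3.5. Its group means spanned 2.02, highest in released day 3.5 embryos, and no 2 neighbours in the order of the 6 groups differed at an adjusted p under 0.05.

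Sox2, the HMG box partner of Pou5f1, had the most irregular course. Its level was 5.99 and 5.66 in U0126 day 2.5 embryos, 5.90 and 6.86 in released day 3.5 embryos and 8.18 and 7.99 in released day 4.5 embryos. In controls it was 6.07 and 4.36 at day 1.5, 3.85 and 4.15 at day 2.5 and 8.80 and 7.32 at day 3.5. Control embryos of day 2.5 were the lowest of all groups, both arrays below the reliable signal, and the U0126 arrays of the same day lay above them. Its means spanned 4.08, highest in released day 4.5 embryos, and no neighbours in the order differed at an adjusted p under 0.05, although the arrays did not overlap between released day 3.5 and control day 3.5 or between control day 2.5 and control day 1.5.

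Nanog, the homeobox factor of the epiblast, had the widest span of the 8 factors, 6.96. Its level was 6.53 and 7.27 in U0126 day 2.5 embryos, 10.90 and 10.36 in released day 3.5 embryos and 10.13 and 9.98 in released day 4.5 embryos. In controls it was 4.24 and 4.01 at day 1.5, 8.56 and 8.23 at day 2.5 and 11.25 and 10.93 at day 3.5. The groups ran from control day 3.5 at the top through released day 3.5 and released day 4.5 to control day 2.5, U0126 day 2.5 and control day 1.5. The last 4 of these were separated at each step by the test, and neighbours among the top 3 were not separated. Both arrays at control day 1.5 were under the reliable signal.

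**Figure D1:**
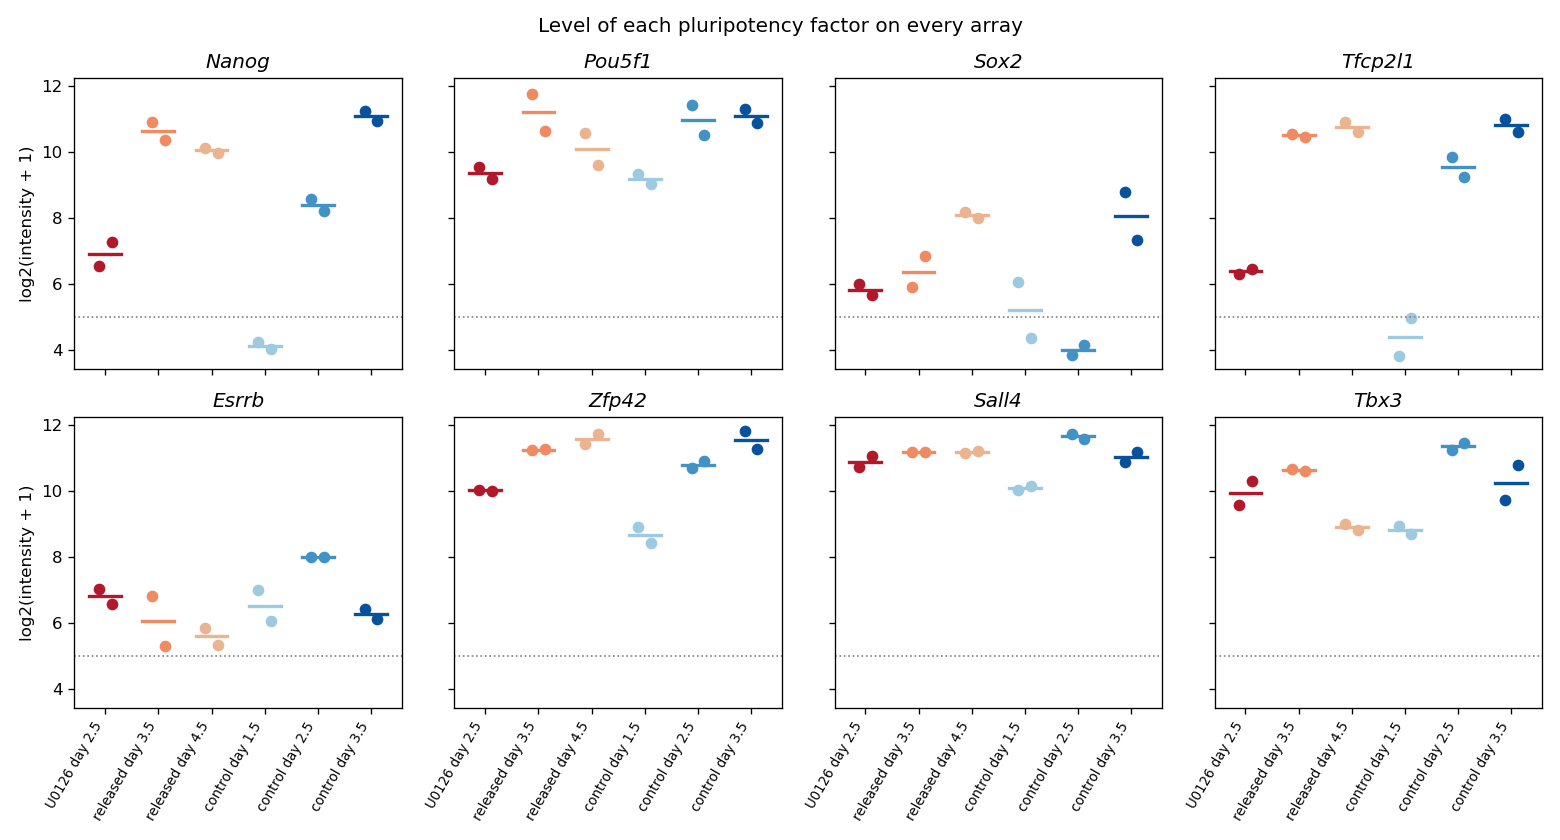
Level of each of the 8 factors on every array, as log2(intensity + 1). Points are arrays, bars are group means of 2 arrays, and the dotted line is the level of 5. Nanog and Tfcp2l1 rise with age in the controls and sit low in U0126 day 2.5 embryos, Sox2 is lowest in control day 2.5 embryos, and Esrrb, Sall4 and Tbx3 are highest there.

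Tfcp2l1, a LIF-responsive factor of the naive network, spanned 6.41. Its level was 6.31 and 6.45 in U0126 day 2.5 embryos, 10.56 and 10.47 in released day 3.5 embryos and 10.92 and 10.62 in released day 4.5 embryos. In controls it was 3.82 and 4.98 at day 1.5, 9.85 and 9.25 at day 2.5 and 11 and 10.62 at day 3.5. The values fell into 3 bands that did not overlap, with 2-cell controls at the bottom, U0126-treated embryos above them and all other arrays at 9.25 or more.

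Esrrb, an orphan nuclear receptor that acts with Nanog in embryonic stem cells, stayed within 2.40. It stood at 7.04 and 6.58 in U0126 day 2.5 embryos, 6.81 and 5.30 in released day 3.5 embryos and 5.85 and 5.34 in released day 4.5 embryos. Control values were 6.99 and 6.06 at day 1.5, 7.99 and 8.00 at day 2.5 and 6.41 and 6.12 at day 3.5. It peaked in control day 2.5 embryos, where both arrays exceeded every other array, and no neighbouring groups differed at an adjusted p under 0.05.

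Tbx3, a T-box factor that also acts in several later tissues, spanned 2.54. It stood at 9.57 and 10.30 in U0126 day 2.5 embryos, 10.68 and 10.61 in released day 3.5 embryos and 8.99 and 8.82 in released day 4.5 embryos. Control values were 8.95 and 8.70 at day 1.5, 11.26 and 11.47 at day 2.5 and 9.74 and 10.77 at day 3.5. It too peaked in control day 2.5 embryos. In its order, U0126 day 2.5 lay above released day 4.5 by a difference of 1.03 (adjusted p = 0.0370), and the other neighbours were not separated.

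Zfp42, the Rex1 marker, spanned 2.91 and was lowest in 2-cell controls. It stood at 10.03 and 10.01 in U0126 day 2.5 embryos, 11.23 and 11.27 in released day 3.5 embryos and 11.43 and 11.73 in released day 4.5 embryos. Control values were 8.92 and 8.41 at day 1.5, 10.69 and 10.91 at day 2.5 and 11.83 and 11.27 at day 3.5. Its 2 U0126 arrays lay between the day 1.5 and the day 2.5 controls without overlap.

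Sall4, whose maternal transcript is present in the egg, varied least, with a span of 1.56. It stood at 10.73 and 11.06 in U0126 day 2.5 embryos, 11.18 and 11.18 in released day 3.5 embryos and 11.15 and 11.20 in released day 4.5 embryos. Control values were 10.04 and 10.17 at day 1.5, 11.73 and 11.59 at day 2.5 and 10.87 and 11.18 at day 3.5. For Zfp42 and for Sall4, the single pair of neighbouring groups that the test separated was U0126 day 2.5 above control day 1.5.

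U0126 day 2.5 and control day 2.5 embryos were compared at equal age, the former arrested at 4 cells and the latter with 4 to 8 cells. An effect of the inhibitor and a difference in stage cannot be told apart in this comparison. Of the 8 factors, 4 fell in the U0126-treated embryos and 0 rose at an adjusted p under 0.05 (limma, Benjamini-Hochberg over 9930 genes), where 4.72% of all tested genes fell and 9.21% rose. Tfcp2l1 fell by 3.17 ± 0.38 log2 units (SE, adjusted p = 0.00135), an 8.99-fold lower level, and 16 of the 9930 genes fell further. Pou5f1 was lower by 1.60 ± 0.46 (adjusted p = 0.0425), Nanog by 1.49 ± 0.32 (adjusted p = 0.0136) and Tbx3 by 1.43 ± 0.36 (adjusted p = 0.0279). In such bulk samples, fewer cells of a type and less RNA per cell cannot be told apart. The difference was -1.18 for Esrrb (adjusted p = 0.129), -0.78 for Zfp42 (adjusted p = 0.102) and -0.77 for Sall4 (adjusted p = 0.0638). Sox2 went the other way at 1.82 ± 0.59 (adjusted p = 0.0660), against control arrays under the reliable signal, which makes it at least 0.83 higher in U0126-treated embryos.

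In all 8 factors the arrays of these groups did not overlap, 7 lower and 1 higher, where 21.2% of all tested genes lay lower and 32.3% higher without overlap. Each of the 8 had an unadjusted p under 0.05, where 9.72% of all tested genes did so lower and 18.3% higher. Their median difference was -1.31, beside 0.11 over all tested genes. With the replicate number as a block, 7 of the 8 were called, 6 lower and 1 higher, where 7.24% of all tested genes were called lower and 13.5% higher. The calls gained were Sox2 (adjusted p = 0.0499), Esrrb (adjusted p = 0.0361) and Sall4 (adjusted p = 0.0320). Sall4 was also called lower with dim genes kept (adjusted p = 0.0279), with a pseudocount of 16 (adjusted p = 0.0295) and after median centring (adjusted p = 0.0491). Zfp42 was called lower after median centring (adjusted p = 0.0491) and Esrrb over the mean of its probe sets (adjusted p = 0.0405). The call for Tfcp2l1 held without each array in turn. That for Nanog was lost at adjusted p = 0.0788 without U0126 replicate 1 and at 0.0981 without control replicate 1. That for Tbx3 was lost at adjusted p = 0.148 without U0126 replicate 1, and at 0.0958 and 0.129 without control replicates 1 and 2. Pou5f1 lost its call without any 1 of the 4 arrays, at adjusted p = 0.0893 and 0.137 without U0126 replicates 1 and 2, and at 0.255 and 0.0549 without control replicates 1 and 2. It was also lost when dim genes were kept in the test (adjusted p = 0.103), as was the call for Tbx3 (adjusted p = 0.0564). When the 4 arrays were fitted alone, none of the 4 calls held, with adjusted p = 0.0621 for Tfcp2l1, 0.102 for Nanog, 0.104 for Pou5f1 and 0.103 for Tbx3, and no gene of the 9930 was called.

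**Figure D2:**
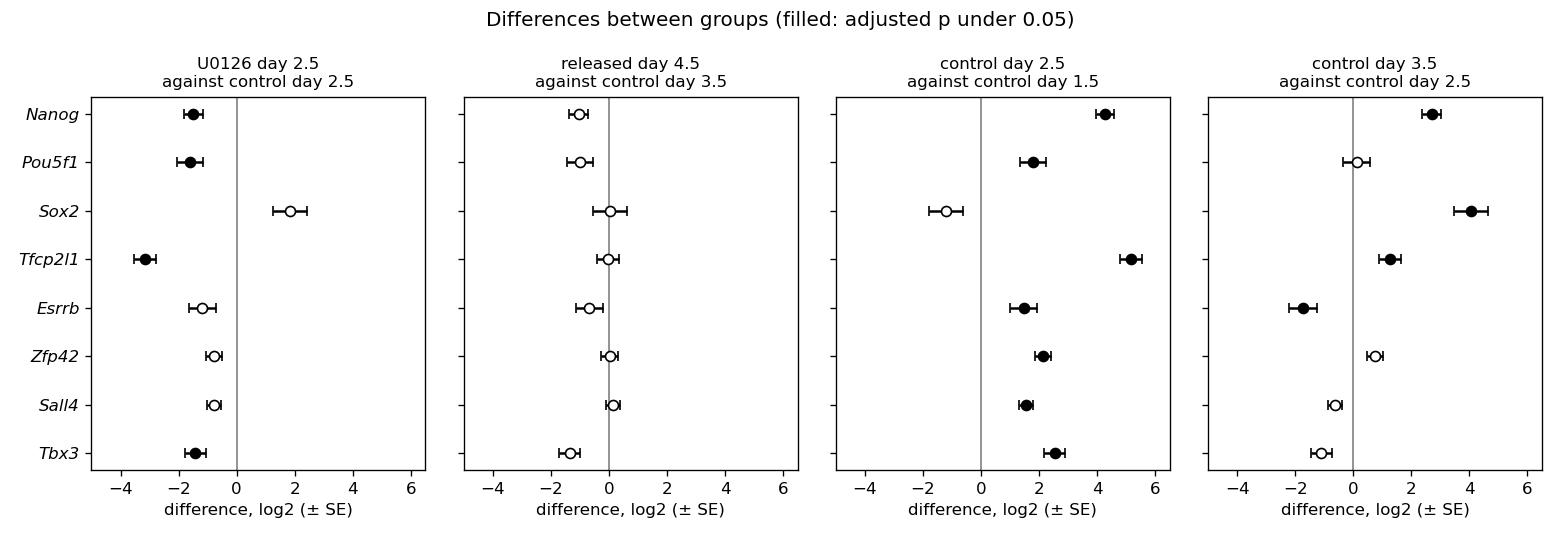
Difference in log2 level for each factor in 4 comparisons, with the first-named group minus the second. Points are fitted differences from 2 arrays a group, bars are standard errors, and filled points have an adjusted p under 0.05. Against same-day controls, Tfcp2l1 is lowest at -3.17 and Sox2 stands alone to the right at 1.82, and against control day 3.5 no released day 4.5 point is filled.

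Set against the 2-cell controls of a day earlier, 5 of the 8 were higher in U0126 day 2.5 embryos and 0 were lower. Over all tested genes 28.1% were higher and 22% lower. Nanog rose by 2.78 ± 0.32 (adjusted p = 5.61e-05) and Tfcp2l1 by 1.98 ± 0.38 (adjusted p = 0.00137). Both were under the reliable signal in the 2-cell controls, so their rises are at least 1.90 and at least 1.38. Zfp42 rose by 1.36 ± 0.29 (adjusted p = 0.00267), Tbx3 by 1.11 ± 0.36 (adjusted p = 0.0258) and Sall4 by 0.79 ± 0.25 (adjusted p = 0.0205). Over the mean of its probe sets Sall4 was at 0.45 and lost its call (adjusted p = 0.119). The rises of Tbx3 and Sall4 were lost after centring each array on its median (adjusted p = 0.0681 and 0.0857). Without control day 1.5 replicate 1 their adjusted p was 0.0527 and 0.0658, without U0126 day 2.5 replicate 2 it was 0.162 and 0.102, and without control day 1.5 replicate 2 that of Tbx3 was 0.117. Pou5f1 differed by 0.18 (adjusted p = 0.765), Esrrb by 0.29 (adjusted p = 0.648) and Sox2 by 0.61 (adjusted p = 0.415). The median of the 8 was 0.95, beside 0.18 over all tested genes.

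The first day after release was followed by comparing released day 3.5 with U0126 day 2.5 embryos. Here 4 of the 8 factors rose and 0 fell, where 13.7% of all tested genes rose and 14.5% fell. Tfcp2l1 rose by 4.13 ± 0.38 (adjusted p = 7.99e-05) and Nanog by 3.73 ± 0.32 (adjusted p = 5.49e-05), and of the 9930 genes 31 and 50 rose further. Pou5f1 rose by 1.83 ± 0.46 (adjusted p = 0.0136) and Zfp42 by 1.23 ± 0.29 (adjusted p = 0.00995). The difference was 0.71 for Tbx3 (adjusted p = 0.171), 0.55 for Sox2 (adjusted p = 0.526), 0.29 for Sall4 (adjusted p = 0.420) and -0.76 for Esrrb (adjusted p = 0.261). The call for Pou5f1 was lost at adjusted p = 0.108 without released replicate 1 and at 0.0671 without U0126 replicate 2, and that for Zfp42 at 0.0545 without released replicate 2. Without released day 3.5 replicate 1, Esrrb was lower by 1.51 (adjusted p = 0.0433). The median of the 8 was 0.97, beside -0.02 over all tested genes.

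On the second day, released day 4.5 against released day 3.5, Tbx3 was the 1 factor called. It fell by 1.74 ± 0.36 (adjusted p = 0.0122), where 6.37% of all tested genes fell and 7.37% rose. The call did not survive the loss of any 1 of the 4 arrays, with adjusted p = 0.0780 and 0.0501 without released day 3.5 replicates 1 and 2, and 0.0504 and 0.0929 without released day 4.5 replicates 1 and 2. Pou5f1 differed by -1.12 (adjusted p = 0.134) and was called lower with the replicate number as a block (adjusted p = 0.0181). Sox2 differed by 1.71 (adjusted p = 0.0809), Nanog by -0.58 (adjusted p = 0.267) and Esrrb by -0.46 (adjusted p = 0.583). Zfp42 differed by 0.33 (adjusted p = 0.502), and Tfcp2l1 and Sall4 by 0.25 and -0.01. The median of the 8 was -0.23, beside -0.04 over all tested genes.

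Released day 3.5 embryos, given as 8 cells, are by the labels nearest in stage to control day 2.5 embryos. By expression, 1257 of all tested genes were called against control day 2.5 and 31 against control day 3.5. Whether released day 3.5 and control day 2.5 embryos match in stage was not tested. Against control day 2.5 embryos Nanog and Sox2 were higher and Esrrb was lower. Of all tested genes 8.61% were higher and 4.05% lower. Nanog was higher by 2.24 ± 0.32 (adjusted p = 0.00289). Sox2 was higher by 2.37 ± 0.59 (adjusted p = 0.0263), at least 1.38 from the reliable signal. Esrrb was lower by 1.94 ± 0.47 (adjusted p = 0.0247). The call for Nanog held without each array. Those for Sox2 and Esrrb were lost at adjusted p = 0.167 and 0.166 without released replicate 2, at 0.117 and 0.0956 without control replicate 1 and at 0.0947 and 0.110 without control replicate 2. They were also lost with dim genes kept in the test (adjusted p = 0.0807 and 0.0689), and Sox2 with a pseudocount of 16 (adjusted p = 0.0570). Tfcp2l1 differed by 0.96 (adjusted p = 0.120) and Pou5f1 by 0.23 (adjusted p = 0.795). The median of the 8 was 0.34, beside 0.09 over all tested genes.

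At equal age, released day 3.5 against control day 3.5, 0 of the 8 factors were called (limma), where 0.312% of all tested genes were. At an unadjusted p under 0.05 there was 1, Sox2, at -1.68 ± 0.59 (adjusted p = 0.491), where 7.04% of all tested genes were under it, and 10 of the 9930 genes had a more negative difference. The other 7 differences lay between -0.46 for Nanog and 0.39 for Tbx3.

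The last pair, released day 4.5 against control day 3.5, shares the label morula to blastocyst but lies a day apart in age. Whether these embryos match in stage within that label was not tested. Of the 8 factors 0 were called (limma), where 2.03% of all tested genes were called lower and 3.85% higher. At an unadjusted p under 0.05 there were 2, both lower, where 9.66% of all tested genes were lower and 11.1% higher. Those were Nanog at -1.04 ± 0.32 (adjusted p = 0.0889) and Tbx3 at -1.35 ± 0.36 (adjusted p = 0.0565). With the replicate number as a block, 2 factors were called lower, where 4.44% of all tested genes were, Tbx3 (adjusted p = 0.0346) and Pou5f1, which differed by -1.0 ± 0.46 (adjusted p = 0.245 without the block and 0.0446 with it). Tbx3 was also called with a pseudocount of 16 (adjusted p = 0.0468) or without control day 3.5 replicate 1 (-1.87, adjusted p = 0.0238). Sox2, Tfcp2l1, Zfp42 and Sall4 differed by 0.03, -0.04, 0.03 and 0.15, and Esrrb by -0.67 (adjusted p = 0.477). The median of the 8 was -0.36, beside -0.03 over all tested genes. Summed intensity of 8 trophectoderm markers was 48707 and 42159 in released day 4.5 embryos, against 29099 and 16373 in control day 3.5 embryos. That of 6 primitive endoderm markers, of which 5 reached the reliable signal on some array, was 7259 and 6457 in released embryos, against 4925 and 4017 in controls. Such sums are set mostly by the brightest genes. Gene by gene, 2 of the 8 trophectoderm markers and 1 of the 5 primitive endoderm markers tested were called higher and 0 lower. Over all tested genes these shares were 3.85% and 2.03%. The part of either lineage in the differences of the 8 factors was not tested.

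The step to the last stage was compared between the released and the control embryos by an interaction, released day 4.5 minus released day 3.5 less control day 3.5 minus control day 2.5. Any difference between the starting groups, released day 3.5 and control day 2.5, enters this interaction, and for Nanog it was 2.24. Nanog was the 1 factor called, and its interaction was negative, where 1.32% of all tested genes were called negative and 1.02% positive. Its step was -0.58 in released embryos and 2.70 in controls, so the interaction was -3.27 ± 0.45 (adjusted p = 0.00924). It was lost without released day 4.5 replicate 2 (-3.20, adjusted p = 0.0518). Sox2 gave -2.35 ± 0.83 (adjusted p = 0.167). The other 6 lay between -1.23 for Pou5f1 and 1.27 for Esrrb, with adjusted p of 0.362 or more.

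Untreated development gives the background to these comparisons. Between control day 2.5 and control day 1.5 embryos 7 of the 8 factors rose and 0 fell, where 28% of all tested genes rose and 27.4% fell. Tfcp2l1 rose by 5.15 ± 0.38 (adjusted p = 1.84e-06) and Nanog by 4.27 ± 0.32 (adjusted p = 2.17e-06), at least 4.55 and at least 3.39 from the reliable signal. Of the 9930 genes, 41 rose more than Tfcp2l1. Tbx3 rose by 2.54, Zfp42 by 2.14, Pou5f1 by 1.79, Sall4 by 1.56 and Esrrb by 1.47, with adjusted p between 1.07e-04 for Zfp42 and 0.0217 for Esrrb. Sox2 differed by -1.21 (adjusted p = 0.104), and without control day 1.5 replicate 2 by -2.07 (adjusted p = 0.0182). Pou5f1 lost its call without control day 2.5 replicate 1 (adjusted p = 0.0656). Esrrb lost it at adjusted p = 0.0743 and 0.0744 without day 2.5 replicates 1 and 2, at 0.169 without day 1.5 replicate 2, and at 0.0605 with dim genes kept in the test. The median of the 8 was 1.96, beside 0.09 over all tested genes.

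Between control day 3.5 and control day 2.5 embryos the factors parted, with 3 higher and 1 lower, where 13.4% of all tested genes were higher and 8.28% lower. Sox2 rose by 4.06 ± 0.59 (adjusted p = 0.00152), at least 3.06, and Nanog by 2.70 ± 0.32 (adjusted p = 5.86e-04), and both calls held without each array. Tfcp2l1 rose by 1.26 ± 0.38 (adjusted p = 0.0373) and Esrrb fell by 1.73 ± 0.47 (adjusted p = 0.0264). Both of these were lost without any 1 of the 4 arrays. For control day 2.5 replicates 1 and 2 left out, adjusted p was 0.0571 and 0.211 for Tfcp2l1 and 0.0986 and 0.101 for Esrrb. For control day 3.5 replicates 1 and 2 left out, it was 0.217 and 0.0705 for Tfcp2l1 and 0.103 and 0.111 for Esrrb. Tfcp2l1 also lost its call with dim genes kept (adjusted p = 0.0760), after median centring (adjusted p = 0.0719) and over the mean of its probe sets (0.36, adjusted p = 0.268). That mean averages in Tfcp2l1 sets under the reliable signal on every array, which makes the difference smaller. Esrrb lost its call with dim genes kept (adjusted p = 0.0732). Zfp42 differed by 0.75 (adjusted p = 0.0860) and Pou5f1 by 0.11 (adjusted p = 0.892). Tbx3 at -1.11 (adjusted p = 0.0525) and Sall4 at -0.63 (adjusted p = 0.0892) were called lower with the replicate number as a block (adjusted p = 0.0332 and 0.0474), which gave 3 factors higher and 3 lower, where 18.9% of all tested genes were higher and 12.3% lower. A pseudocount of 16 gave the same calls for both (adjusted p = 0.0467 and 0.0439). Tbx3 was also called lower after median centring (adjusted p = 0.0388) and without control day 3.5 replicate 2 (-1.62, adjusted p = 0.0185), and Sall4 with dim genes kept (adjusted p = 0.0369). Over both days, control day 3.5 against control day 1.5, 7 of the 8 were higher, where 35.1% of all tested genes were higher and 28.9% lower, with Nanog up by 6.96 (at least 6.09) and Esrrb at -0.26 (adjusted p = 0.651). In that span Sall4 at 0.92 and Tbx3 at 1.43 lost their calls without control day 3.5 replicate 2 (adjusted p = 0.0556 and 0.0578), and Sall4 over the mean of its probe sets (adjusted p = 0.306).

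Of the 17 probe sets, 8 gave the levels above and 9 were not used. Nanog, Pou5f1, Sox2 and Zfp42 had 1 each. Of the 9, 5 were under the reliable signal on every array, and 4 reached it on at least 2 arrays. The second Esrrb set, 1441921_x_at, followed the used set 1436926_at with r = 0.881 over 12 arrays. For Tbx3, 1437479_x_at and 1445757_at followed 1448029_at with r = 0.806 and 0.824. The mean level of 1437479_x_at was 6.34 in U0126 day 2.5 embryos, against 7.65 in control day 2.5 embryos, and that of 1445757_at was 5.60 in U0126 day 2.5 embryos, against 7.33 in control day 2.5 embryos, in the same direction as the used set. Among the unused sets that reached the reliable signal, that of Sall4 was the exception, since 1424153_s_at did not follow 1424152_at (r = 0.0418). Its mean was 6.75 in U0126 day 2.5 embryos against 6.74 in control day 2.5 embryos, and 6.65 in control day 1.5 embryos. It was 5.89 in released day 4.5 embryos against 7.27 in released day 3.5 embryos, where the used set differed by -0.01, and 6.26 in control day 3.5 embryos. The Sall4 differences rest on 1 probe set. Those of Tfcp2l1 do too, since 1460714_at and 1460715_x_at stayed under the reliable signal on every array (r = -0.430 and -0.380 with the used set 1418091_at).

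**Figure D3:**
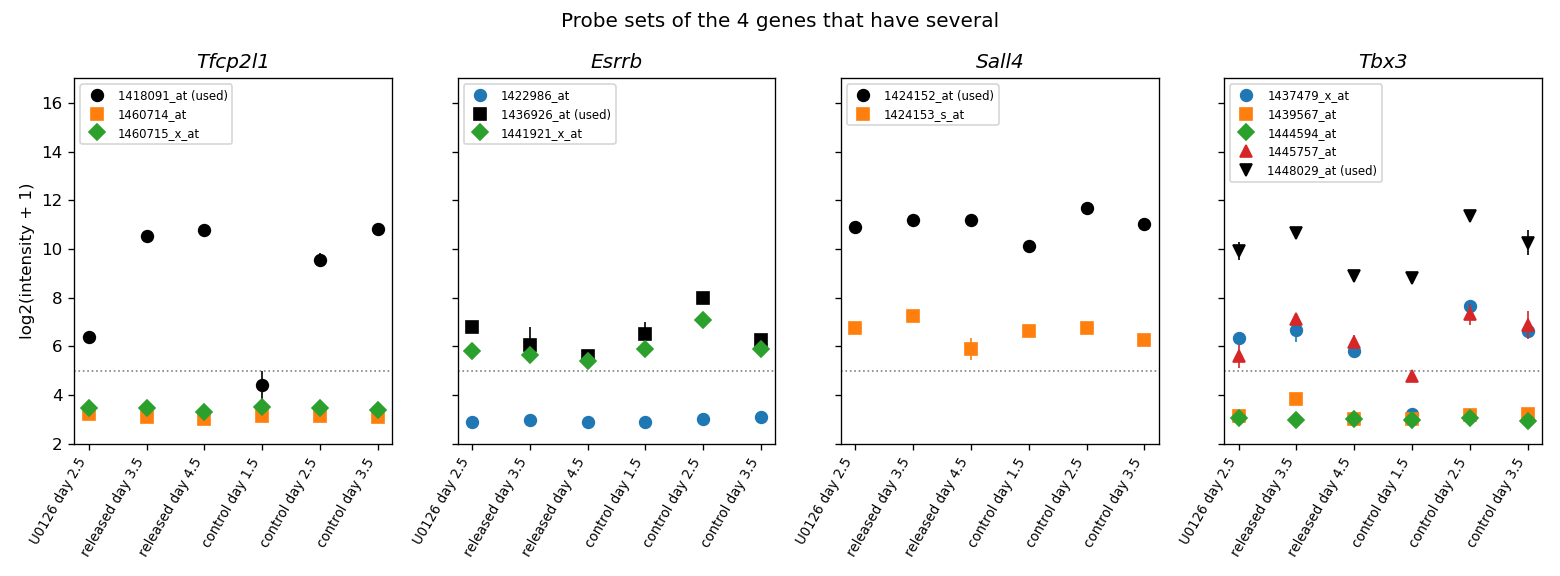
Mean level of every probe set of the 4 factors that have several, as log2(intensity + 1). Points are means of 2 arrays with the lowest and highest array as bars, the set in use is black, and the dotted line is the level of 5. The brighter Esrrb and Tbx3 sets run alongside each other, while the second Sall4 set does not follow the used one.

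The 8 factors did not move as 1 block across the arrays. The arrays of a group share the labelled stage and treatment. Over the 12 arrays, Nanog, Tfcp2l1 and Zfp42 had closely similar profiles. Their r was 0.963 for Nanog and Tfcp2l1, 0.965 for Nanog and Zfp42 and 0.953 for Tfcp2l1 and Zfp42. Tbx3 was closest to Sall4 (r = 0.744) and had r = 0.619 with Pou5f1 and 0.537 with Esrrb. Sox2 had a negative r with Esrrb (-0.688) and a weaker one with Tbx3 (-0.409). These values describe 12 arrays in 6 groups and carry no test.

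**Figure D4:**
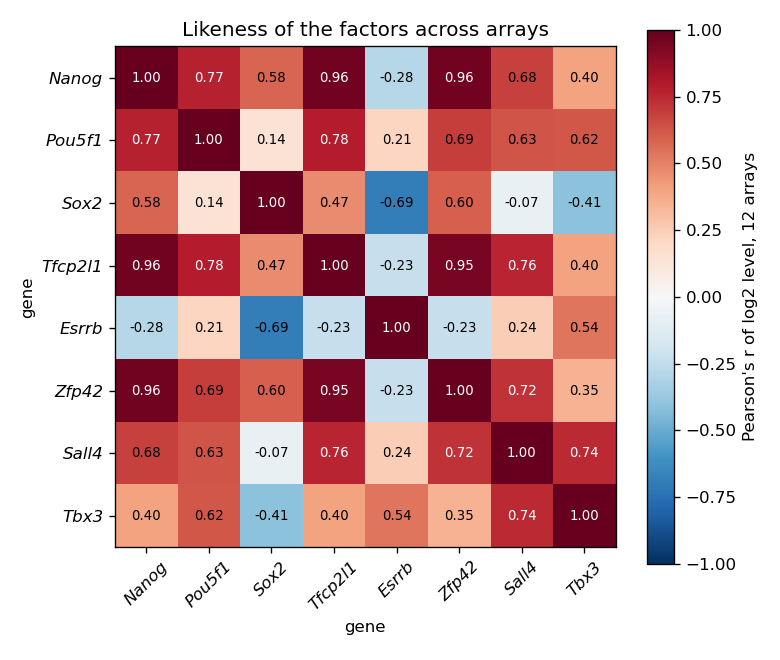
Pearson's r of log2 levels for each pair of the 8 factors over 12 arrays. Colour and number both give r. Nanog, Tfcp2l1 and Zfp42 form pairs of 0.953 to 0.965, and the lowest value, -0.688, is that of Sox2 and Esrrb.

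Among the other 9922 tested genes, those with the profile most like each factor were ranked by r over the 12 arrays. For Tfcp2l1 they were Pdia5 (r = 0.994) and Lpcat3 (r = 0.993), for Zfp42 Cdh1, which encodes E-cadherin (r = 0.989), and Actb, which encodes beta-actin (r = 0.986), and for Nanog Cox16 (r = 0.983) and Hikeshi (r = 0.980). Sox2 was nearest to Slc20a2 (r = 0.987) and Fkbp15 (r = 0.952), and Tbx3 to Rbpms (r = 0.993) and Crls1 (r = 0.952). The likeness was lower for Pou5f1, with Plod1 (r = 0.955) and Mlf2 (r = 0.935), for Sall4, with Trim6 (r = 0.951) and Ppm1l (r = 0.947), and for Esrrb, with Lclat1 (r = 0.914) and BC028528 (r = 0.912).

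A list of 38 other genes of the pluripotency network, its ligands, receptors, cofactors and targets, had 36 on the array, of which 33 passed the filter on dim genes. Between U0126 day 2.5 and control day 2.5 embryos 4 of the 33 were higher and 5 lower, where 9.21% of all tested genes were higher and 4.72% lower. The median of the 33 was -0.11, beside 0.11 over all tested genes. Fgf4, the ligand made by inner cells, had levels of 7.48 and 8.70 in U0126-treated embryos, against 5.24 and 5.47 in controls, a rise of 2.73 ± 0.37 (adjusted p = 0.00206). Il6st, which encodes gp130, the shared receptor chain of LIF, was at 5.94 and 5.52 in U0126-treated embryos, against 3.19 and 3.19 in controls, a difference of 2.54 ± 0.34 (adjusted p = 0.00206), at least 0.73. Over the mean of its probe sets the Il6st difference was 0.73 (adjusted p = 0.177). Among its falls, Gdf3, a TGF-beta family ligand, was lower by 3.27 ± 0.43 (adjusted p = 0.00199), at least 1.81. Tdgf1 (Cripto), the Nodal coreceptor, was at 6.80 and 7.94 in U0126-treated embryos, against 9.70 and 9.85 in controls, lower by 2.40 ± 0.48 (adjusted p = 0.0104). The Tdgf1 call was lost at adjusted p = 0.0621 without U0126 replicate 1, and at 0.0560 and 0.0577 without control replicates 1 and 2. With the 4 arrays fitted alone, adjusted p was 0.0697 for Fgf4, 0.0621 for Il6st, 0.0635 for Gdf3 and 0.0753 for Tdgf1.

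In released day 4.5 embryos against control day 3.5 embryos, 3 of the 33 were higher and 0 lower, where 3.85% of all tested genes were higher and 2.03% lower. At an unadjusted p under 0.05, 8 were higher and 3 lower, where 11.1% of all tested genes were higher and 9.66% lower. Mycn, the N-Myc factor, had levels of 9.61 and 9.76 in released embryos, against 7.04 and 5.74 in controls, higher by 3.29 ± 0.46 (adjusted p = 0.00329). Lifr, the LIF receptor, was higher by 2.81 (adjusted p = 0.00401), at least 0.90, and Lif, its ligand, was higher by 2.10 (adjusted p = 0.00227), at least 0.92, both with controls under the reliable signal. Over the mean of its probe sets Lifr did not pass the filter on dim genes and was not tested. Lif was the remaining call and was named after its value was seen. A gene passes the filter through 2 bright arrays alone, which can favour such calls. None of the 33 was called between released and control embryos of day 3.5 (limma), where 0.312% of all tested genes were. An unadjusted p under 0.05 was found for 5, Klf2, Socs3, Tet1, Otx2 and Pou3f1, where 7.04% of all tested genes were under it.

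During untreated development 14 of the 33 rose and 4 fell between control day 2.5 and control day 1.5 embryos. Of all tested genes 28% rose and 27.4% fell. Tdgf1 rose by 5.02 ± 0.48 (adjusted p = 1.05e-05), and Tet2, a 5-methylcytosine oxidase, by 4.57 ± 0.65 (adjusted p = 1.64e-04). Their control day 1.5 means, 4.75 (SD 0.97) and 3.68 (SD 1.88), were under the reliable signal, which limits the size of both rises. Il6st fell by 4.82 ± 0.34 (adjusted p = 1.60e-06), at least 3.01, and Fgf4 fell by 2.15 ± 0.37 (adjusted p = 5.98e-04). Il6st and Fgf4 thus fell in controls and were higher under U0126 than in same-day controls, and both comparisons share the control day 2.5 arrays. Between control day 3.5 and control day 2.5 embryos 1 of the 33 rose and 7 fell, where 13.4% of all tested genes rose and 8.28% fell. Klf2, a Krüppel-like factor of the naive network, had levels of 7.25 and 8.44 at day 3.5, against 10.53 and 10.30 at day 2.5, lower by 2.57 ± 0.38 (adjusted p = 0.00163). Socs3, the feedback inhibitor of LIF signalling, was at 7.33 and 9.76 at day 3.5, against 11.88 and 12.05 at day 2.5, lower by 3.43 ± 0.62 (adjusted p = 0.00398). The 1 that rose, Zfp281, at 0.99 ± 0.32 (adjusted p = 0.0498), lost its call at adjusted p = 0.361 without day 3.5 replicate 1, at 0.154 and 0.160 without day 2.5 replicates 1 and 2, at 0.0719 with dim genes kept and at 0.0885 after median centring.

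Of 9 factors and receptors of trophectoderm and primitive endoderm, 4 were lower in U0126 day 2.5 than in control day 2.5 embryos and 0 higher. Of all tested genes 4.72% were lower and 9.21% higher. The 4 were the trophectoderm factors Cdx2 and Tfap2c and the primitive endoderm genes Gata6 and Pdgfra. The call for Cdx2 held without each array. Tfap2c and Pdgfra lost theirs without control day 2.5 replicate 1 (adjusted p = 0.0656 and 0.0886) or replicate 2 (adjusted p = 0.0992 and 0.191), Gata6 without control day 2.5 replicate 1 (adjusted p = 0.107), Tfap2c and Gata6 without U0126 day 2.5 replicate 2 (adjusted p = 0.0521 and 0.0745), and Pdgfra without U0126 day 2.5 replicate 1 (adjusted p = 0.199). Pdgfra, at -1.78 in the fit of all arrays, was at -0.88 over the mean of its probe sets (adjusted p = 0.119), and its call was also lost with dim genes kept (adjusted p = 0.101) and with a pseudocount of 16 (adjusted p = 0.0615). With the 4 arrays fitted alone, all 4 calls were lost, at adjusted p = 0.0621 for Cdx2, 0.0971 for Tfap2c, 0.0908 for Gata6 and 0.100 for Pdgfra. The summed intensity of the 8 trophectoderm markers was 2149 and 1760 in U0126-treated embryos, against 6309 and 5122 in same-day controls. That of the 6 primitive endoderm markers was 997 and 556 in U0126-treated embryos, against 3791 and 2735 in same-day controls. Such sums are set mostly by the brightest genes. Of the 8 trophectoderm markers 5 were called lower and 3 were not called, and of 5 primitive endoderm markers tested 3 and 2. By sign alone, 6 of the 9 factors and receptors were lower and 3 higher. The 2 sums thus stood lower on the same arrays on which Tfcp2l1, Pou5f1, Nanog and Tbx3 were lower. The part of these lineages in those differences was not tested. Of the same 9, 3 were higher and 0 lower in released day 4.5 than in control day 3.5 embryos. Of all tested genes 3.85% were higher and 2.03% lower. The 3 were Elf5, a trophectoderm factor (6.19, at least 3.94, adjusted p = 6.48e-05), Sox17, a primitive endoderm factor (4.14, at least 2.43, adjusted p = 0.00190), and Eomes (2.52, adjusted p = 0.0466). A gene passes the filter on dim genes through 2 bright arrays alone. The control day 3.5 arrays of Elf5 and Sox17 were under the reliable signal, so the filter can favour these calls. The 8 pluripotency factors in the same comparison were not called. Eomes lost its call at adjusted p = 0.196 and 0.185 without released replicates 1 and 2, at 0.382 without control replicate 2, and at 0.128 with dim genes kept.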

How the data were processed

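Messenger RNA was labelled in duplicate arrays per group from 0.1 µg of total RNA per labelling, per the labels' protocols. The deposited values are linear intensity values per probe set. GCRMA, which corrects background, normalizes between arrays and summarizes probes, is named in the submitters' processing notes, and GCOS 1.2 and GeneSpring 7.3 in the series text, without their settings, so the absolute unit is arbitrary. Median intensity per array was 10.8 to 11.5.

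Values were taken as log2(intensity + 1), with a pseudocount of 1 and no further normalization. Gene symbols came from the platform annotation (34958 probe sets with 1 symbol, 932 with several, 9211 with none), and each gene was read from its probe set with the highest mean. Genes at 5 or more on at least 2 arrays were tested. All 12 arrays entered 1 fit in limma 3.58.1 (R 4.3.3; lmFit, eBayes; 6 residual and 4.51 prior degrees of freedom) with a mean per group. Genes with a Benjamini-Hochberg adjusted p under 0.05 over 9930 genes were called. All adjusted p-values come from limma, errors of differences are standard errors, and an "at least" difference sets the dimmer group to a level of 5. The procedure was tested on simulated data.

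The replicate numbers were checked for pairing. Deviations of same-numbered arrays from their group means correlated at r = 0.125 to 0.417 in 15 of 15 pairs of groups, so the number was also fitted as a block. Other alternatives were a pseudocount of 16, no filter on dim genes, median centring of each array, the mean of a gene's probe sets, each array left out, and the 4 arrays of the U0126 comparison alone. Where an array was left out of a group, the remaining one was assumed to vary like the other groups. Beyond the 8 factors, the network genes named are the 2 called genes of the largest difference per direction in 4 comparisons, with exceptions stated. The factors, lists, motifs and alternatives were chosen with earlier results of these data known.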

Additional observations from a re-analysis of the deposited data

Results flagged for a closer look

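The step to the last stage differed between released and control embryos for Nanog. Nanog changed by -0.58 in released day 4.5 against released day 3.5 embryos and by 2.70 in control day 3.5 against control day 2.5 embryos, an interaction of -3.27 ± 0.45 (log2, SE, limma adjusted p = 0.00924). By the labels both steps end at morula to blastocyst. Nanog already differed at their starts, where released day 3.5 embryos were 2.24 higher than control day 2.5 embryos, and this enters the interaction. At their ends the difference was -1.04, released day 4.5 against control day 3.5. Nanog stood at 10.90 and 10.36 in released day 3.5 embryos and lay above both control day 2.5 arrays (8.56 and 8.23), while released day 4.5 embryos (10.13 and 9.98) lay below both control day 3.5 arrays (11.25 and 10.93). Among the alternatives, adjusted p exceeded 0.05 without released day 4.5 replicate 2 (-3.20, adjusted p = 0.0518).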

How the results depend on the processing

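Of 36 calls of a factor, 18 held under every alternative run. Numbers of factors called moved by over 1.5 times as follows. A pseudocount of 16 gave 1 in released day 4.5 against control day 3.5 embryos in place of 0. Keeping dim genes gave 1 in released day 3.5 against control day 2.5 in place of 3, median centring gave 3 in U0126 day 2.5 against control day 1.5 in place of 5, and the 4 arrays alone gave 0 in U0126 day 2.5 against control day 2.5 in place of 4. With the replicate number as a block there were 7 in U0126 day 2.5 against control day 2.5 in place of 4, 2 in released day 4.5 against released day 3.5 in place of 1, and 2 in released day 4.5 against control day 3.5 in place of 0. Smaller moves included 6 in place of 4 in U0126 day 2.5 against control day 2.5 after centring, and 6 in place of 4 in control day 3.5 against control day 2.5 with a pseudocount of 16 or the block. Over the 88 values of the factors the block gained 8 calls, all given with the results, and changed no other. Keeping dim genes changes the number of genes, and fitting the 4 arrays alone changes the number of arrays. The cause of any of these moves was not tested.

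With each array left out in turn, factors called were 3 to 5 in U0126 day 2.5 against control day 1.5, 1 to 3 against control day 2.5, 3 to 4 in released day 3.5 against U0126 day 2.5, 1 to 3 against control day 2.5, 0 to 0 against control day 3.5, 0 to 0 in released day 4.5 against released day 3.5, 0 to 1 against control day 3.5, 5 to 7 in control day 2.5 and 5 to 7 in control day 3.5 against control day 1.5, 2 to 3 in control day 3.5 against control day 2.5, and 0 to 1 in the interaction. All tested genes called in those same comparisons were 4047 to 4734 (4976 with all arrays), 409 to 1183 (1384), 1630 to 2372 (2799), 268 to 577 (1257), 1 to 30 (31), 321 to 759 (1365), 84 to 541 (584), 4612 to 5042 (5506), 5346 to 5787 (6354), 677 to 1565 (2148) and 30 to 115 (232). In released day 3.5 against control day 3.5 the 31 genes became 15 with a pseudocount of 16 and 2 with dim genes kept. The 1384 genes of U0126 day 2.5 against control day 2.5 became 0 with the 4 arrays alone. With the replicate block, genes called became 2165 in released day 4.5 against released day 3.5, 2018 in released day 3.5 against control day 2.5, 1017 in released day 4.5 against control day 3.5 and 615 in the interaction.

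Changes of sign concerned 0 called factors. After median centring, Sox2 and Zfp42 were at -0.013 and -0.011 in released day 4.5 against control day 3.5, and Pou5f1 at -0.095 in control day 3.5 against control day 2.5. Over the mean of probe sets Sall4 was at 0.021 in released day 3.5 against control day 2.5, -0.11 in released day 4.5 against control day 3.5 and -0.13 in the interaction. Centring moved the median over all tested genes in U0126 day 2.5 against control day 2.5 to -0.09, beside 0.11 without it. It changed the genes called higher and lower to 553 and 624 in that comparison (915 and 469 without it), 607 and 586 in released day 3.5 against control day 2.5 (855 and 402), 963 and 1160 in control day 3.5 against control day 2.5 (1326 and 822) and 141 and 110 in the interaction (101 and 131). Leaving out arrays turned the sign of 16 results, over these ranges. In U0126 day 2.5 against control day 1.5 they were -0.18 to 0.75 for Esrrb, -7.59e-04 to 0.37 for Pou5f1 and -0.24 to 1.47 for Sox2. In controls they were -0.73 to 0.21 for Esrrb over both days and -0.33 to 0.56 for Pou5f1 on the later day. For Pou5f1 they were -0.33 to 0.79 in released day 3.5 against control day 2.5. Against control day 3.5, released day 3.5 gave -0.97 to 0.54 for Esrrb, -0.45 to 0.68 for Pou5f1, -0.0036 to 0.31 for Sall4 and -0.13 to 0.90 for Tbx3. Released day 4.5 gave -0.011 to 0.30 for Sall4, -0.71 to 0.76 for Sox2, -0.23 to 0.15 for Tfcp2l1 and -0.26 to 0.31 for Zfp42. In released day 4.5 against released day 3.5 they were -1.21 to 0.29 for Esrrb and -0.035 to 0.020 for Sall4. Values under a level of 5, as for Nanog and Tfcp2l1 at control day 1.5 and Sox2 at control day 2.5, limit the size of a difference.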
